A study of Mus musculus with 16 samples.

Results

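Pattern-recognition receptors bind conserved microbial molecules, and most of those measured here signal through the adaptor Myd88. The 10 genes described were Tlr1, Tlr2, Tlr3, Tlr4, Tlr5 and Tlr9 of the Toll-like receptors, Nod1, Nod2 and Nlrp6 of the cytosolic NOD-like receptors, and Myd88. They were taken by gene symbol from the 22396 symbols listed for 16 mice, and all 10 were present. Each was measured as TPM, a length-scaled transcript abundance, summed over its listed transcripts. RNA came from EpCAM+ cells sorted from the distal colonic mucosa of adult mice, by polyA sequencing. All mice carried Tnfr2-f/f, loxP-flanked alleles of Tnfrsf1b, which encodes the TNF receptor TNFR2. The Vil1::Cre;Tnfr2-f/f mice (knockout below, by their label) also carried Cre driven by the villin promoter, which is active in intestinal epithelium. They drank water (4 controls, 5 knockouts) or 3% dextran sulfate sodium (DSS), a polymer that injures the colonic epithelium, for 6 days (3 controls, 4 knockouts), and the labels give dissection on day 12 for each mouse.

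Toll-like receptors at the cell surface (Tlr1, Tlr2, Tlr4, Tlr5) bind lipoproteins, lipopolysaccharide or flagellin, and those in endosomes (Tlr3, Tlr9) bind nucleic acids. Tlr1 pairs with Tlr2 on triacylated lipoproteins. Tlr3 signals through Ticam1 in place of Myd88. Nod1 and Nod2 bind peptidoglycan fragments in the cytosol and signal through Ripk2, and Nlrp6 is an intestinal epithelial sensor linked to mucus secretion and to caspase 1. Colonic epithelium and mucosal leukocytes both use several of these receptors, so a level in sorted cells can come from either.

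Several facts of the libraries touch what follows. The water and DSS tables were scaled separately by the authors, so no test was run between them. Levels across treatments are given as rescaled TPM, after 1 median-of-ratios rescaling of the 16 mice with factors of 0.88 to 1.21, which set the median DSS minus water difference over 11262 genes at 0.00 against 0.31 for the TPM as deposited. Treatment and cage cannot be told apart: cages a (4 males) and b (5 females) drank water, and cages c and d (7 females) received DSS. Treatment and tissue region cannot be told apart either. Per the paper, cells of DSS mice came from injured regions of the distal colon, dissected away from unaffected colon before sorting. Tnfrsf1b itself did not separate the genotypes, at 11.1 to 15.5 TPM in water controls against 9.23 to 14.8 in water knockouts, and 13.3 to 22.2 against 13.5 to 27.0 after DSS. Per the paper, the loxP sites flank 1 exon of the gene. Whether a TPM of the whole gene shows the loss of that exon was not tested. The paper reports reduced TNFR2 in EpCAM+ cells of knockout mice by flow cytometry, with similar results by RT-qPCR. DSS control 3, from cage c, stood apart in its mean goblet cell marker level of 7.96 on the log2(rescaled TPM + 1) scale, against 5.81 to 6.66 in the other 6 DSS mice.

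The cells carried epithelial RNA in every mouse. The mean of 11 epithelial markers lay at 8.47 to 8.87 with water and 8.35 to 8.77 after DSS on that scale. Leukocyte RNA moved with treatment. All 8 pan-leukocyte markers were lower in each DSS mouse than in each water mouse, with a summed level of 275 to 726 rescaled TPM with water and 24.0 to 79.1 after DSS. The 10 macrophage markers summed to 1290 to 2960 with water and 18.4 to 54.3 after DSS, and Adgre1, the F4/80 antigen, lay under 1 rescaled TPM in all DSS mice. The 10 B cell markers summed to 16.8 to 140 and 1.42 to 4.90. Of the 8 neutrophil markers, S100a8 and S100a9 lay wholly higher after DSS and the other 6 overlapped. Among those, means after DSS were lower for Ly6g, Il1r2, Mmp9 and Csf3r and higher for Retnlg and Cxcr2. DSS control 1 stood apart in the neutrophil sum (1800 rescaled TPM against 79.2 to 506 in the other DSS mice) and in the leukocyte sum (79.1 against 24.0 to 40.7), and no member changed between overlapping and separate without that mouse. The part of these cells in the receptor levels was not tested, and in bulk RNA a smaller number of cells of a type and less RNA per cell cannot be told apart.

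Upstream sequence is shown for Tlr9, Nod2 and Tlr2, the members with the lowest DSS minus water differences, and for Nlrp6, whose mean was higher after DSS with overlap. Each is read 5′ to 3′ from RefSeq (GRCm38.p6) and ends at the base before the gene start in GENCODE M21.

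Tlr9, chr9:106222348-106222597, plus strand: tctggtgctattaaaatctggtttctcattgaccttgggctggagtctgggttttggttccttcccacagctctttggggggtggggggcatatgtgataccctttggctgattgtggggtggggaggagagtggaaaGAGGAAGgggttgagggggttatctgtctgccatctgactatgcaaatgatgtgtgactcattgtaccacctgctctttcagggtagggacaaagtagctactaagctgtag

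Nod2, chr8:88647097-88647314, plus strand: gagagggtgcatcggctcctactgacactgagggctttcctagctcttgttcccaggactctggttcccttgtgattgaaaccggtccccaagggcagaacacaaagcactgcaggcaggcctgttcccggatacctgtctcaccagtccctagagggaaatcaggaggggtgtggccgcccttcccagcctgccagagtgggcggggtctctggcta

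Tlr2, chr3:83841768-83841858, minus strand: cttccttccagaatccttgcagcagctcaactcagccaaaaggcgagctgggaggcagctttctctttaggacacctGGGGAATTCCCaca

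Nlrp6, chr7:140920652-140920901, plus strand: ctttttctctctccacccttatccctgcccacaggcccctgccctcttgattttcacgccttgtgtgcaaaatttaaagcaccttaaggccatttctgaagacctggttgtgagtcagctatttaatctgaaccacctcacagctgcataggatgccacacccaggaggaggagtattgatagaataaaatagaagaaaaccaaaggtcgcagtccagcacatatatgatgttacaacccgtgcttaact

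Capitals mark matches to the motifs searched on both strands of the 250 bases before each RefSeq start. Those of Tlr2 are overlapping kappa-B matches, a letter pattern held by 3.9% of 32851 windows. That of Tlr9 is the PU.1 core GAGGAAG, held by 10.6%. Nod2 and Nlrp6 held no match to these, to the interferon response (ISRE) core (2.98%), to the CDX core TTTATG (10.8%) or to the HNF4 core CAAAGTC (3.84%). Over 11 windows of 9 members, 2 members held the kappa-B pattern, 2 the PU.1 core, 1 the interferon response core, 2 the CDX core and 0 the HNF4 core.

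With water, the members fell into tiers of level within a mouse. Myd88 was highest in 8 of 9 mice, at 31.2 ± 3.52 rescaled TPM (SD, n = 9). Tlr2 (22.4 ± 7.33) and Tlr1 (22.1 ± 1.25) followed and could not be ordered, since Tlr2 exceeded Tlr1 in 4 of 9 mice. Nlrp6 (12.3 ± 2.32) came next, below Tlr2 in 8 of 9 mice. Tlr4 (6.26 ± 1.20), Tlr3 (5.92 ± 1.09) and Nod1 (5.81 ± 0.695) formed a group with no fixed order, Tlr4 above Tlr3 in 6 of 9 mice and Tlr3 above Nod1 in 4 of 9. Tlr5, Tlr9 and Nod2 were lowest, with Tlr5 above Tlr9 in 5 of 9 mice and Tlr9 above Nod2 in 5 of 9. Among the 11262 genes with a mean of at least 1 rescaled TPM, Myd88 lay at the 78.1 to 84.4 percentile in water mice and Tlr9 at the 8.57 to 24.0.

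After DSS the order changed at the top. Tlr1 exceeded Myd88 in 6 of 7 DSS mice and in 0 of 9 water mice. Nlrp6 exceeded Tlr2 in all 7 DSS mice and in 1 of 9 water mice. Tlr1 exceeded Tlr2 in all 7. These orders rest on TPM within a mouse and need no scaling between tables.

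**Figure D1:**
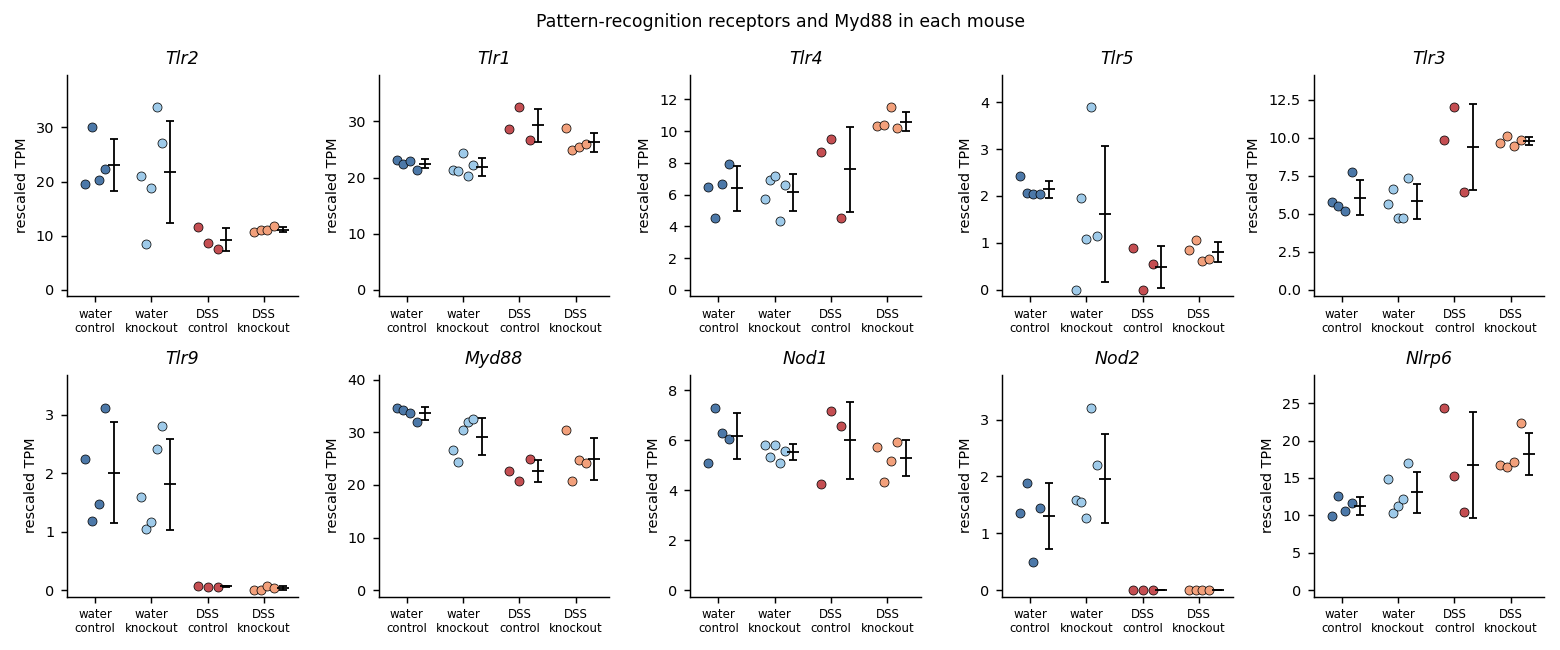
Rescaled TPM (y axes, linear from about 0) of each member in the 4 groups; each point is 1 mouse and the black mark beside each group is its mean ± SD. Tlr9 and Nod2 lie near 0 in all 7 DSS mice, Tlr1 lies higher after DSS, and the lowest Tlr4, Tlr3 and Nlrp6 points of the DSS controls are all DSS control 3.

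The question put to the treatments was which receptors differed in level between injured and uninjured colon. By rescaled TPM, 1 member (Tlr1) lay higher in each of the 7 DSS mice than in any of the 9 water mice, and 2 (Tlr9 and Nod2) lay lower. Of all 11262 genes, 4.37% lay wholly higher and 7.03% wholly lower. Nod2 had a mean under 1 rescaled TPM and is not among those genes, so the counts to set against that background are 1 of 9 members on each side, which does not set the members apart from other genes. The median DSS minus water difference was −0.21 over the 10 members and 0.00 over all genes, with 0.10 and 0.90 quantiles of −1.11 and 0.71 over all genes.

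Tlr9, the endosomal receptor for unmethylated CpG DNA (chr9:106222598-106226883, plus strand), was the clearest case. In water controls it was listed at 2.04, 1.05, 1.31 and 2.76 TPM, and in water knockouts at 1.46, 0.927, 1.07, 2.12 and 2.50. After DSS it was listed at 0.0756, 0.0651 and 0.0717 TPM in the controls and at 0, 0, 0.0808 and 0.0502 in the knockouts. Groups did not overlap across treatments and overlapped fully by genotype. The mean difference was −1.43 on the log2(rescaled TPM + 1) scale, which understates changes at low levels. Tlr9 has 1 annotated transcript, and none of its 31-base words occurs in another annotated transcript.

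Nod2, the muramyl dipeptide sensor (chr8:88647315-88688474, plus strand), followed the same course. In water controls it was listed at 1.24, 1.68, 0.442 and 1.28 TPM, and in water knockouts at 1.45, 1.38, 1.16, 2.81 and 1.96. After DSS 2 controls were listed at 0, and the highest of the 7 values was 0.00813 TPM, in knockout 4. Its listed transcript shares 100% of its 31-base words with unlisted transcripts of the gene, so reads of Nod2 may stand with transcripts that are not in the tables, and its value is uncertain.

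Tlr2, the shared partner of Tlr1 and Tlr6 (chr3:83836272-83841767, minus strand), was lower on average after DSS. Water controls held 19.5, 30.0, 20.3 and 22.3 rescaled TPM, and water knockouts 21.0, 8.47, 18.8, 33.7 and 27.1. DSS controls held 11.6, 8.72 and 7.45, and DSS knockouts 10.7, 11.0, 11.1 and 11.7. The treatments overlapped through water knockout 2 alone. Without that mouse the lowest water value was 18.8 against a highest DSS value of 11.7, and the mean log2 difference moved from −0.98 to −1.13. Water knockout 2 also had the lowest mean macrophage marker level of the water mice, 5.63 against 6.49 to 7.28 in the others. Its fibroblast (4.64) and endothelial (1.08) marker means were the lowest as well. Its pan-leukocyte (5.54) and B cell (2.00) marker means lay within the range of the other water mice. Whether any of these bears on its Tlr2 level was not tested. Tlr2 has 1 annotated transcript, which shares no 31-base word with another.

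Tlr5, the flagellin receptor (chr1:182954788-182976044, plus strand), was low throughout. Water controls were listed at 2.19, 1.84, 1.82 and 1.81 TPM, and water knockouts at 0, 1.74, 0.999, 3.41 and 1.01. DSS mice were listed at 0.992, 0 and 0.668 in controls and at 1.01, 1.24, 0.706 and 0.768 in knockouts. By rescaled TPM the treatments overlapped through water knockout 1 alone: without it the lowest water value was 1.09 against a highest DSS value of 1.07, and the mean log2 difference moved from −0.70 to −0.87. As deposited, DSS knockouts 1 and 2 also lay above water knockout 3, and DSS knockout 2 above water knockout 5. These comparisons rest on few reads, with a geometric mean of the authors' estimated counts of 11 with water and 10 after DSS. Its listed transcript shares 98.4% of its 31-base words with unlisted transcripts of the gene.

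Tlr1 (chr5:64924679-64933563, minus strand) lay at 20.2 to 24.3 rescaled TPM with water, with a median of 22.3, and at 24.9 to 32.5 after DSS, with a median of 26.7. The gap between the treatments was narrow, and the mean log2 difference was 0.30. Among expressed genes within a mouse, Tlr1 lay at the 73.3 to 77.8 percentile with water and at the 80.4 to 85.1 after DSS, also without overlap. Up to 21.9% of its 31-base words occur in Tlr6, which lay under 1 rescaled TPM in every DSS mouse. The split between its 2 listed transcripts varied widely, with 48.2% to 100% of TPM on 1 of them in water mice, so only the gene sum is used.

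Tlr3, the double-stranded RNA receptor (chr8:45395665-45411080, minus strand), lay at 4.74 to 7.76 rescaled TPM with water and at 6.40 to 12.0 after DSS, with medians of 5.64 and 9.84. Tlr4, the lipopolysaccharide receptor (chr4:66827584-66930284, plus strand), lay at 4.34 to 7.91 and at 4.52 to 11.5, with medians of 6.60 and 10.2. The 3 listed Tlr3 transcripts share 64.0% to 66.1% of their 31-base words with unlisted ones. In both genes DSS control 3 alone reached into the water range. Without it the DSS mice held at least 9.47 for Tlr3 and 8.71 for Tlr4, the treatments did not overlap, and the count of members wholly higher after DSS went from 1 to 3. The share over all genes without this mouse is not given, so that count has no background beside it.

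Nlrp6 (chr7:140920902-140929192, plus strand) lay at 9.93 to 17.0 rescaled TPM with water, median 11.7, and at 10.5 to 24.4 after DSS, median 16.7. The mean log2 difference was 0.46, with overlap: DSS controls 2 and 3 (15.2 and 10.5) and DSS knockouts 1 and 2 (16.7 and 16.5) lay under the highest water value. Without DSS control 3 the overlap remained. Its listed transcript shares 85.2% of its 31-base words with unlisted transcripts, so its level is uncertain as that of Nod2 is. Nod1 (chr6:54923949-54972612, minus strand) overlapped between treatments, at 5.07 to 7.30 with water and 4.25 to 7.16 after DSS. Its mean log2 difference was −0.06 after rescaling and 0.25 as deposited.

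Myd88 (chr9:119335934-119341411, minus strand) depended on the scaling. Its mean log2 difference was −0.36 after rescaling, with values of 24.3 to 34.7 rescaled TPM with water and 20.7 to 30.4 after DSS, and −0.01 for TPM as deposited. Of its 31-base words, 10.1% occur in the overlapping gene Acaa1a on the other strand, and 94.7% in unlisted transcripts of Myd88, so its level is uncertain in the same way.

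**Figure D2:**
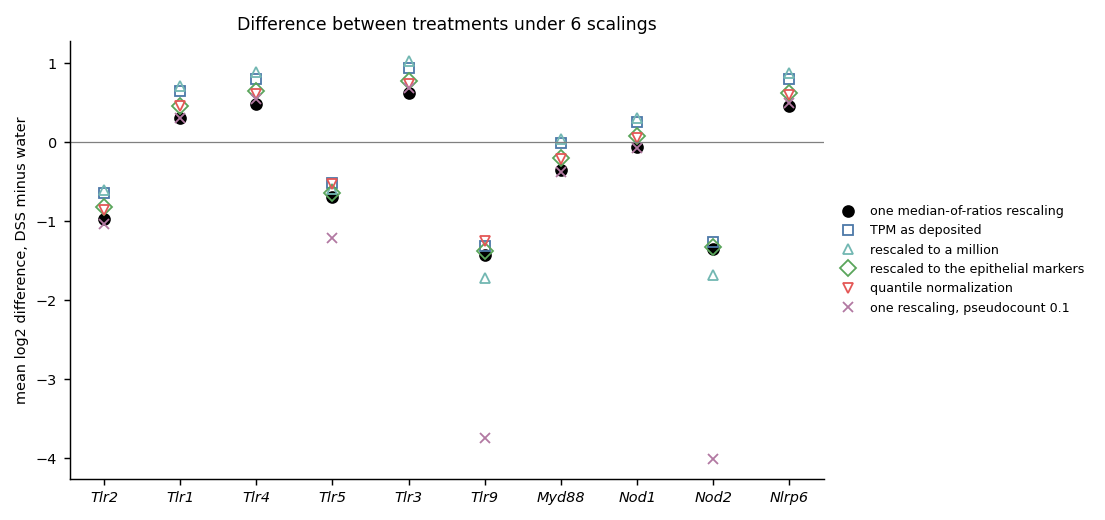
Mean log2 difference, DSS minus water (y axis), of each member (x axis) under 6 scalings, drawn as separate symbols with no error bars; quantile normalization has no point for Nod2. Tlr2, Tlr5, Tlr9 and Nod2 lie below 0 and Tlr1, Tlr3, Tlr4 and Nlrp6 above 0 under each scaling drawn, while Myd88 and Nod1 lie around 0 and change side.

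Ratios within a mouse gave the same picture without scaling between tables. These 3 ratios were chosen after the values were seen and are a description, and the limits on Myd88 and Nlrp6 given above hold for them. The Tlr2 to Tlr1 ratio lay at 0.401 to 1.67 with water and at 0.268 to 0.450 after DSS, overlapping through water knockout 2. The Tlr1 to Myd88 ratio lay at 0.631 to 0.869 with water and 0.947 to 1.57 after DSS. The Nlrp6 to Tlr2 ratio lay at 0.362 to 1.22 with water and 1.42 to 2.11 after DSS. The latter 2 did not overlap.

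**Figure D3:**
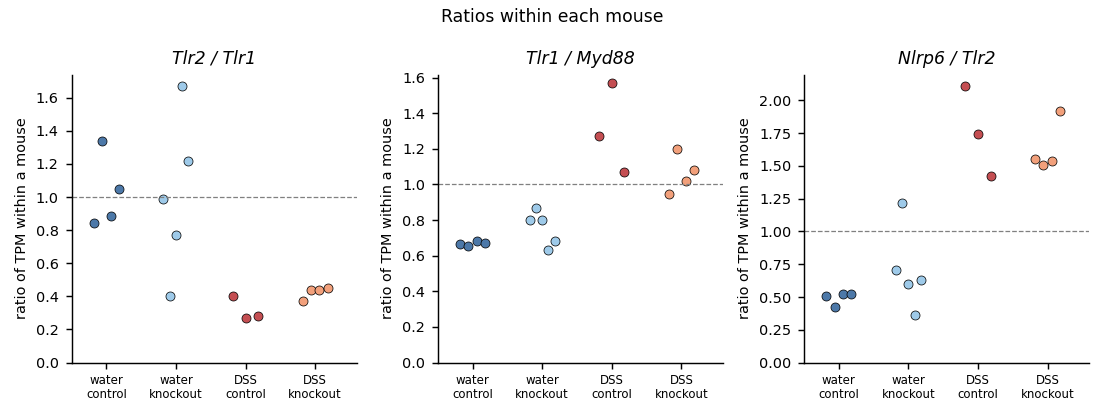
Ratio of the TPM of 2 members within a mouse (y axes, linear from 0) in the 4 groups; each point is 1 mouse and the dashed line marks equal levels. The Tlr1 to Myd88 and Nlrp6 to Tlr2 ratios of all 7 DSS mice lie above those of all 9 water mice.

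Within a treatment, the members were set against the leukocyte marker mean. Over 20 correlations (10 members, 2 treatments) 0 passed an adjusted p of 0.05 by exact permutation over all pairings, and 2 had an unadjusted exact p under 0.05 for r. In water mice (n = 9) Tlr9 gave r = 0.60 and rho = 0.60 (exact p = 0.0948 and 0.0968, adjusted p = 0.474 and 0.504), and r = 0.59 without the 2 mice farthest from the marker median. Tlr5 gave r = 0.66 and rho = 0.45 (exact p = 0.0525 and 0.23, adjusted p = 0.35 and 0.504), and r = 0.81 without those 2 mice. Nod2 gave r = 0.68 and rho = 0.40 (exact p = 0.0445 and 0.291, adjusted p = 0.350 and 0.504), and r = −0.18 without those 2 mice, so its relation rested on them. In DSS mice (n = 7) the most extreme was Nod1, at r = −0.75 and rho = −0.82 (exact p = 0.0468 and 0.0341, adjusted p = 0.350 and 0.504), and r = −0.86 without the 2 farthest mice. Against the macrophage markers, Tlr2 in water mice gave r = 0.81 and rho = 0.47 (exact p for r = 0.0246, adjusted p = 0.164), but r = 0.32 without water knockout 2 and r = −0.26 without the 2 mice farthest from the marker median, so its relation rested on them. Tlr9 gave r = 0.70 and rho = 0.73 (exact p for r = 0.0192, adjusted p = 0.164), and r = 0.69 without those 2 mice (exact p = 0.0962). Against the B cell markers Tlr9 gave r = 0.21 and rho = 0.08 in water mice (exact p = 0.594 and 0.843). In DSS mice it gave r = 0.65 against them (exact p = 0.108). The lowest exact p for r against the B cell markers was that of Nod1 in water mice (r = −0.71, exact p = 0.0329, adjusted p = 0.658). In DSS mice Tlr3 gave r = −0.80 and rho = −0.61 against the macrophage markers (exact p for r = 0.0133, adjusted p = 0.164). Without the 2 farthest DSS mice its r was −0.14, so its relation rested on them.

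**Figure D4:**
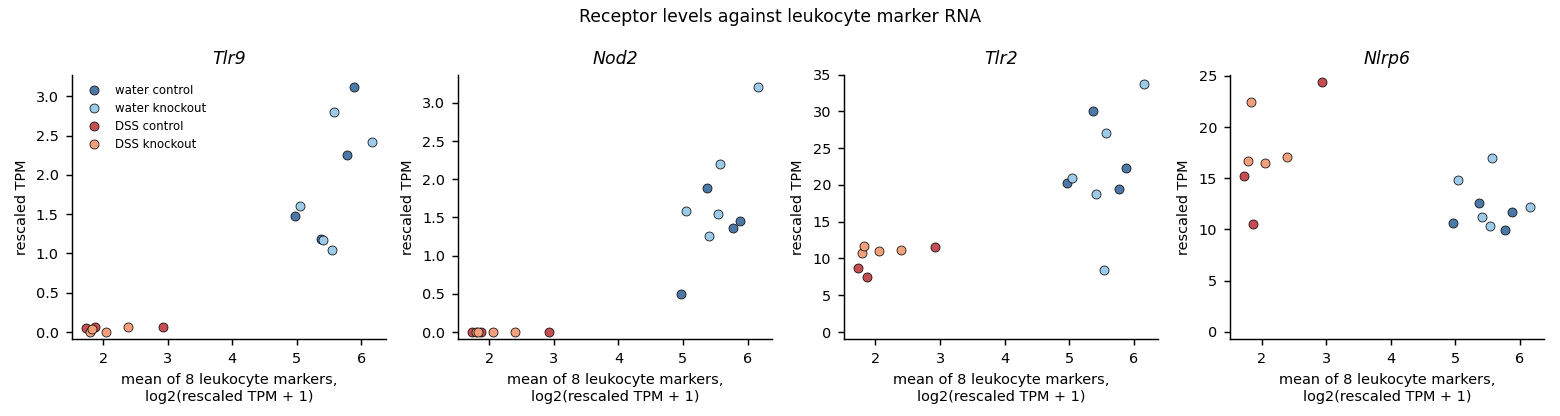
Rescaled TPM of Tlr9, Nod2, Tlr2 and Nlrp6 (y axes) against the mean of 8 leukocyte markers on the log2(rescaled TPM + 1) scale (x axes); each point is 1 mouse. The treatments form separate clusters at 1.73 to 2.93 and 4.97 to 6.16 on the x axis, so no correlation is given across them.

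The question put to the genotypes was whether mice labelled as lacking epithelial Tnfr2 held other receptor levels. By limma on log2(TPM + 1), 7 members passed the filter of a mean of at least 1 TPM after DSS (Tlr5, Tlr9 and Nod2 did not), and 0 were called at an adjusted p of 0.05, where 0.00918% of 10899 genes were called. At an unadjusted p under 0.05 there was 1 of the 7 members, Tlr4, beside 289 of the 10899 genes. With water 10 members were tested and 0 were called, where 0.00905% of 11046 genes were called. At an unadjusted p under 0.05 there were 0 of these members, beside 583 of the 11046 genes. The intervals bound what could be missed: after DSS the 95% interval of the log2 fold change was −0.40 to 0.12 for Tlr1 and −0.38 to 0.77 for Nlrp6, the narrowest and the widest of the 7, and with water it was −0.24 to 0.18 for Tlr1, −0.92 to 0.58 for Tlr2, −0.68 to 0.50 for Tlr9 and −1.27 to 0.42 for Tlr5.

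Tlr4 was higher on average in the DSS knockouts. The DSS controls were listed at 9.76, 10.6 and 5.47 TPM and the knockouts at 12.0, 12.1, 13.1 and 11.8, without overlap. The log2 fold change was 0.51 (SE 0.21, 95% interval 0.01 to 1.00, limma adjusted p = 0.9997). An exact two-sided permutation of the 7 mice gave p = 0.0286, the smallest that 35 splits allow. The same permutation was run for every member in each treatment, and its p is not adjusted. The low value is DSS control 3. Without it the log2 fold change was 0.25 (limma adjusted p = 0.866), and within cages it was 1.01 in cage c (1 mouse a genotype) and 0.25 in cage d (2 controls, 3 knockouts). With water the Tlr4 log2 fold change was −0.03 (SE 0.19). The difference between the treatments' genotype effects was not tested.

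Other members differed by genotype within their spread. Tlr2 gave a log2 fold change of 0.28 (SE 0.15) after DSS and −0.17 (SE 0.33) with water. Myd88 in water mice was listed at 28.2 to 31.5 TPM in controls and 21.7 to 29.0 in knockouts, a log2 fold change of −0.19 (SE 0.10, limma adjusted p = 0.865, exact permutation p = 0.0556). That difference was −0.40 in cage a and −0.05 in cage b. Nlrp6 gave 0.19 (SE 0.25) after DSS and 0.20 (SE 0.15) with water.

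**Figure D5:**
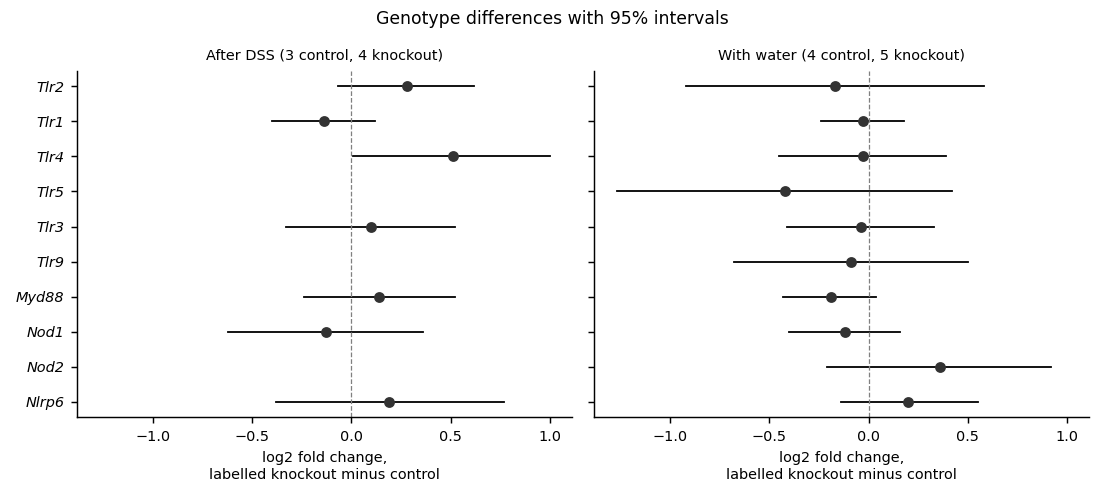
Log2 fold change of each member, labelled knockout minus control (x axis), with its 95% limma interval as a line, after DSS (left) and with water (right); members that did not pass the level filter have no point. Tlr4 after DSS is the 1 interval that does not reach 0, from 0.01 to 1.00.

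Cage and sex were compared in the water mice, males of cage a minus females of cage b with genotype in the model. Of the 10 members 0 were called by limma and 0 had an unadjusted p under 0.05, where 0.0362% of 11046 genes were called and 754 had an unadjusted p under 0.05. Tlr2 came nearest, at −0.64 (SE 0.28, limma adjusted p = 0.729), and at −0.31 without water knockout 2.

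The other genes of the pathway were described from 9 lists of 96 genes. After DSS 76 of them were tested for genotype and with water 79, and limma called 0 in either, with 6 and 4 at an unadjusted p under 0.05. Over all genes tested, 289 of 10899 after DSS and 583 of 11046 with water had an unadjusted p under 0.05. By treatment, 8 of the 96 lay wholly higher after DSS and 14 wholly lower. Among the 85 with a mean of at least 1 rescaled TPM these were 8 and 13, beside 4.37% and 7.03% of all genes at that level. Without DSS control 1 the 96 held 8 and 19, with Cd14, Nlrp3, Il1b, Mefv and Ifi204 added to those wholly lower. The share over all genes without that mouse is not given, so the change from 14 to 19 has no background beside it.

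Of the 6 Toll-like receptors outside the members, 4 lay wholly lower after DSS and 0 wholly higher. Tlr7, a sensor of single-stranded RNA, held 6.90 ± 2.20 rescaled TPM with water (SD, n = 9) and 0.0297 to 0.371 after DSS. Tlr8 (1.49 to 6.00 with water), Tlr12 (1.14 to 4.71) and Tlr13 (2.14 to 4.96) were at most 0.322, 0.293 and 1.89 after DSS. Among 7 co-receptors and trafficking factors, 2 lay wholly lower. Unc93b1, which carries endosomal receptors out of the endoplasmic reticulum, went from 75.3 ± 16.4 rescaled TPM (SD, n = 9) to 9.12 ± 2.93 (SD, n = 7), and Cd36 from 50.6 ± 17.7 to 2.31 ± 1.39. Cd14, the lipopolysaccharide co-receptor, held 77.6 to 272 with water and 49.4 to 98.6 after DSS, with overlap through DSS control 1 alone. Of 11 lectin and other surface receptors 3 lay wholly lower, Mrc1, Clec4n and Msr1. Macrophage marker RNA was lower in the same DSS mice, as given above, and its part in these levels was not tested.

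The NOD-like receptors outside the members divided. Of 13, 3 lay wholly higher after DSS. Naip6 held 23.0 ± 6.05 rescaled TPM with water (SD, n = 9) and 45.2 ± 6.05 after DSS (SD, n = 7), Naip5 17.6 ± 3.68 and 32.9 ± 4.61, and Nlrc4, the partner of NAIP proteins in the flagellin-sensing inflammasome, 12.2 ± 1.45 and 21.9 ± 2.94. Naip genes are related copies. The sequence they share was not measured here, and the division of reads among them is uncertain. Naip1 and Naip2 overlapped between treatments. Ciita, the activator of MHC class II genes, and Nlrp10 lay wholly lower.

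Of 20 adaptors and kinases, 1 lay wholly higher (Tab3) and 2 wholly lower. Ticam1, the adaptor of Tlr3, held 12.8 ± 2.27 rescaled TPM with water (SD, n = 9) and 7.02 ± 1.89 after DSS (SD, n = 7), while Tlr3 itself had the higher mean after DSS. Ripk2, the kinase of Nod1 and Nod2, held 3.83 to 7.22 and 6.07 to 12.4, with overlap. Ripk1 was level, at 17.0 ± 1.35 and 17.1 ± 1.08. Of 8 inflammasome partners and 8 cytosolic nucleic acid sensors, 0 lay wholly apart with all 16 mice. Il1b, which encodes the cytokine interleukin 1 beta, held 79.2 to 242 rescaled TPM with water and 8.94 to 188 after DSS, and the pore-forming Gsdmd 53.1 to 90.4 and 30.9 to 55.4. Casp1, the caspase that cuts both, held 64.9 to 89.6 and 68.5 to 129, and Il18 62.9 to 129 and 69.1 to 89.2. Mavs, the adaptor of cytosolic RNA sensors, held 10.6 to 14.5 and 7.31 to 12.3. Among 13 genes induced by NF-kB, the antimicrobial genes Reg3b, Reg3g, Saa3 and Lcn2 lay wholly higher after DSS, Reg3b at 0 to 3.32 rescaled TPM with water and 95.8 to 1500 after DSS. The other 9 overlapped, among them the acute-phase gene Saa1 (529 to 1550 and 246 to 651) and the neutrophil chemokine Cxcl2 (27.8 to 140 and 9.10 to 159), whose means were lower after DSS. Of 10 negative regulators, Nfkbie lay wholly lower, at 14.0 ± 3.63 and 2.48 ± 0.739 rescaled TPM, whereas Nfkbia (143 to 329 and 117 to 226) and Tnfaip3 (35.8 to 87.7 and 45.8 to 118), inhibitors of NF-kB signalling, overlapped.

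Genes that varied most like a member across the 16 mice were ranked by Pearson r of log2(rescaled TPM + 1) after subtraction of group means, among 7258 genes with a mean of at least 5 rescaled TPM. Tlr9 and Nod2 hardly varied after DSS (at most 0.0706 and 0.00706 rescaled TPM), so their values rest on the 9 water mice. For Tlr2, 92.8% of the squared deviations from its group means lay in the water mice, so its values rest mostly on those. Among them water knockout 2 held 8.47 rescaled TPM of Tlr2 against 18.8 to 33.7 in the others. The 3 nearest to Tlr9 were Apobec3 (r = 0.96), Mgl2 (0.89) and Ighv1-42 (0.87), and to Nod2 Ighv9-2 (0.88), Ighv13-2 (0.86) and Slc7a1 (0.85). The nearest to Tlr2 were Skil (0.93), Lrig1 (0.91) and Itga6 (0.89), and to Tlr4 Rala (0.92), Ppp4r3b (0.91) and Cenpq (0.90). The nearest to Nlrp6 were Spsb1 (0.83), Patl1 (0.82) and Zfand2a (0.79), and to Myd88 Plaur (0.89), Gadd45b (0.85) and Coro1c (0.84). The nearest single genes to Tlr1, Tlr3 and Nod1 were M6pr (0.84), Slc12a2 (0.89) and Lrig3 (0.87). Between members the highest such r was 0.73, for Tlr3 and Tlr4. Both held their lowest DSS value in DSS control 3. Tlr4 was 4.52 rescaled TPM there against 8.71 to 11.5 in the other DSS mice, and Tlr3 6.40 against 9.47 to 12.0. The r values of Tlr3 and Tlr4 are not given without that mouse. Each value is the highest among the genes searched and is a description.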

How the data were processed

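EpCAM+ cells of 16 mice were sorted and sequenced as stranded polyA libraries. Per the labels and methods, the authors quantified reads with kallisto and tested genotype within a treatment with sleuth (mm10). They deposited 1 table per treatment, with TPM per transcript and mouse, scaled between the mice of that table. Only APPRIS principal transcripts are listed, so the listed TPM total 487469 to 861109 per mouse. A further deposited column gives, per transcript, the authors' mean of the natural log of the estimated counts. Turned back into a count, it is a geometric mean. Their columns of p-values, q-values and ratios for genotype were not used. Counts per mouse are not used here, so depth per gene is known only as the authors' mean. Each table has 29373 lines; 385 were exact repeats of a transcript, and 1 copy of each was kept. No per-mouse column was left out (0). The labels and the methods differ slightly in the DSS concentration, and the labels' value is given.

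TPM was summed per gene symbol. Genotype (knockout minus control) was fitted separately for each treatment on log2(TPM + 1), and cage with sex in the water mice only. The fits used limma (3.58.1, R 4.3.3) with its trend option. Genes averaging under 1 TPM were left out, and a call needed an adjusted p (Benjamini-Hochberg) below 0.05. The fits were tested on simulated data. Each member was also tested alone by an exact permutation, two-sided, of mouse labels. The labels do not say whether litters were shared, and p-values measure the spread between mice. Across treatments only levels are given, after 1 median-of-ratios rescaling of the 16 mice. Words of 31 bases shared between transcripts, and positions, are from GENCODE M21 (GRCm38); the 14 member transcripts had the same version there. Alternatives were another pseudocount, filters, scalings, cage as a covariate, a replicate block, weights and leaving out each mouse. Differences within a cage, list counts without DSS control 1 and a correlation without water knockout 2 were added after the data were seen.

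The members, the pathway and marker lists and the tests were chosen with earlier results of these data known. Named genes were the members, Tnfrsf1b, those of the 4 most abundant genes of each pathway list, and the 3 genes most like each member. Adgre1, Ripk2, Ticam1, Tab3, Nlrc4, Ciita, Nlrp10, Msr1, Nfkbie, Saa3, Lcn2, S100a8, S100a9, Ly6g, Il1r2, Mmp9, Csf3r, Retnlg, Cxcr2, Nlrp3, Mefv and Ifi204 were named after their values were seen. Some items are not reported here.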

Additional observations from a re-analysis of the deposited data

Results flagged for a closer look

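In 30 groups of 4 or 5 mice with a spread, 4 held a value far from the other values of its group by Dixon's test, and chance alone flags about 1 in 20 groups. In DSS knockout 4, Tlr2 was listed at 13.4 TPM against 12.6 to 12.7 in the other 3 DSS knockouts, Nlrp6 at 25.8 against 19.1 to 19.5, and Nod2 at 0.00813 against at most 9.16e-06. In water control 1, Tlr5 was listed at 2.19 TPM against 1.81 to 1.84 in the other 3 water controls. The Tlr2, Tlr5 and Nod2 distances are small in TPM, and the narrow spread of the other mice sets them apart. No member showed genotype differences that were opposite and complete in the 2 treatments.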

How the results depend on the processing

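No member was called for genotype, cage or sex under any alternative, each replicate left out included. The Tlr4 interval after DSS reached 0 with median-of-ratios factors (−0.03 to 1.02) and without the level filter (−0.003 to 1.02). With these, quantile normalization, the replicate block or array weights, 0 members had an unadjusted limma p under 0.05 for genotype after DSS. The direction of small member differences turned under some settings. With array weights Tlr3 after DSS (−0.04) and Tlr4 with water (0.01) reversed; rescaled to equal totals, Nlrp6 genotype with water (−0.02) and Tlr1 by cage (−0.06) did, and with quantile normalization Tlr3 by cage (0.01). Leaving out each mouse in turn gave, after DSS, −0.10 to 0.26 for Tlr3 and −0.04 to 0.48 for Nlrp6, the lowest of each without DSS control 3; for genotype with water −0.34 to 0.12 for Tlr2, −0.07 to 0.01 for Tlr1, −0.17 to 0.07 for Tlr4, −0.12 to 0.06 for Tlr3 and −0.23 to 0.07 for Tlr9; and by cage −0.02 to 0.06 for Tlr1, −0.02 to 0.22 for Tlr4, −0.54 to 0.08 for Tlr5 and −0.09 to 0.09 for Tlr3. Genes called for genotype after DSS went from 1 to 0 with pseudocount 0.1, without the level filter and with the replicate block, and to 0 to 3 with a mouse left out. With water they went from 1 to 0 with pseudocount 0.1, with a mean of at least 5 TPM and with the replicate block, to 4 without the filter, 2 with quantile normalization, 3 with 16 mice in 1 fit, and 1 to 2 with a mouse left out. By cage, 4 became 3 to 7. The cause was not tested. Same-numbered mice did not deviate together (r of −0.197 to −0.0253 after DSS over 3 pairs and −0.0769 to 0.0932 with water over 4, with 0 and 2 controls closest to their own number), so the numbers do not pair the mice.

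Members wholly higher after DSS went from 1 to 2 (Tlr3 added) as deposited and rescaled to equal totals, and to 1 to 3 with a mouse left out. As deposited, the median difference over all genes was itself 0.31 toward DSS. Members wholly lower were 1 with quantile normalization and with ranks, because Nod2 is not among the genes ranked, and 2 to 3 with a mouse left out. No share over all genes is given for these alternatives, so their counts have no background beside them. With the macrophage or B cell markers, or without the 2 farthest mice, 0 correlations passed. Depth limits Tlr5, Tlr9 and Nod2, with a geometric mean of the authors' estimated counts of 11, 16 and 18 with water. With pseudocount 0.1 their differences became −1.21, −3.74 and −4.01.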
